A study of Mus musculus with 8 samples.

Results

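Notch receptors, their ligands and the HES-HEY genes that they switch on were followed in skin fibroblasts of mice with a mutated mitochondrial genome. The members were Notch1, Notch2, Notch3, Notch4, Jag1, Jag2, Dll1, Hes1, Hey1 and Heyl, each taken with every array probe that carries its symbol. This gave 12 probes for 10 genes, out of 25697 probes for 18138 symbols on the array. RNA of skin fibroblast cultures from 8 mice was hybridised to Illumina MouseRef-8 v2.0 BeadChips, 1 array per mouse. The 4 Nd2-mutant mice were of the conplastic strain C57BL/6J-mtALR/LtJ, which carries a change in the mitochondrial gene Nd2, a core subunit of respiratory complex I. The 4 control mice were of the strain C57BL/6J-mtAKR/J. Both strains share the C57BL/6J nuclear genome and both carry mitochondrial DNA of another strain, so the controls were not wild-type C57BL/6J. All mice were 12 months old, with 2 males and 2 females in each strain. The mutants were the males 28 and 32 and the females 34 and 35, and the controls were the males 16 and 17 and the females 15 and 37. The cells were grown out of enzyme-digested skin and collected after passage 1, so the cultures could hold other cells of the dermis. In such bulk samples, fewer cells of a type and less RNA per cell cannot be told apart.

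Notch proteins are receptors in the cell membrane that bind ligands of the Jagged and Delta-like families on a neighbouring cell. Binding leads to cleavage by an ADAM protease and then by gamma-secretase, and the freed intracellular part enters the nucleus, joins the DNA-binding protein RBPJ and a Mastermind coactivator, and turns on genes such as Hes1, Hey1 and Heyl, whose products are transcriptional repressors. In skin, the pathway is known for its part in epidermal differentiation, in the hair follicle and in blood vessels, where Notch1 and Notch4 act in endothelial cells and Notch3 in pericytes and smooth muscle cells.

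The promoters of Jag1, the ligand that could be tested, and of the receptors Notch1 and Notch3 are shown for the DNA ahead of their transcription starts. Each is the RefSeq window of 250 bases before the start in the build GRCm38.p6, 5′ to 3′ on the strand of the gene, and capitals mark matches to CACGCG or its reverse complement CGCGTG, the class C site that HES and HEY proteins can bind. Jag1 lay at chr2:137116521-137116770 on the minus strand, with a GC content of 57.2%. Notch1 lay at chr2:26503823-26504072 on the minus strand, with 66.0% GC, and Notch3 at chr17:32166891-32167140 on the minus strand, with 68.8% GC.
Jag1: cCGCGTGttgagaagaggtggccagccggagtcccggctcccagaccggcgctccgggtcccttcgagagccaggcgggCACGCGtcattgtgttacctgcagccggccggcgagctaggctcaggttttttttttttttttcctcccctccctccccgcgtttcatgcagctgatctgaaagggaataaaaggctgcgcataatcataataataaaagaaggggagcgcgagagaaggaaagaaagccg
Notch1: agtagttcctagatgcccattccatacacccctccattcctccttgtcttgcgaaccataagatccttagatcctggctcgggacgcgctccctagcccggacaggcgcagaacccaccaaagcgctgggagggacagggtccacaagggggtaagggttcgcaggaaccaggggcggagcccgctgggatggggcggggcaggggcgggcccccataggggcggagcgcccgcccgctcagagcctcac
Notch3: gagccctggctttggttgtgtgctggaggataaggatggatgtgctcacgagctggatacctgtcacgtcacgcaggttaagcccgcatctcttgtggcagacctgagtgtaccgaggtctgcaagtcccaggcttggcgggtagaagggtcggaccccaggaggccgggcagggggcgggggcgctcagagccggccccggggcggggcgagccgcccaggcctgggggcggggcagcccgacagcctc
RefSeq promoters were matched for 7 of the 10 members, the 4 receptors and the 3 ligands, with 2 promoters for Dll1 and so 8 in all. Those of the targets Hes1, Hey1 and Heyl were not analysed here. The class C letters were in 3 of these 8 promoters and in 7.62% of all 32851 promoters of the same length. Jag1 held 2 matches, at 249 to 244 and at 171 to 166 bases before the start, the second one in the CACGCG orientation. Notch2 held 1, at 42 to 37 bases before the start, and the second Dll1 promoter 1, at 68 to 63 bases. The letters TGGGAA (reverse complement TTCCCA), the core that RBPJ binds, were in 0 of these 8 receptor and ligand promoters and in 21.6% of all promoters. The E-box CACGTG, the same on both strands and with no overlap with the class C letters, was in 0 of the 8 and in 6.02% of all. These are matches of letters within the windows only. The GC content of the member promoters was 56.0 to 87.2%, against a median of 52.4% over all promoters.

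On each array 10663 to 11350 probes were detected above the negative control beads, at most 44.2% of the array. The array of control mouse 15 stood apart, its correlation with the others averaging 0.934, against 0.963 to 0.974 for the rest. Testing was limited to the 10414 probes that every array of 1 strain or of both detected. limma with Benjamini-Hochberg adjustment over these probes called 0% of them between the strains, with no adjusted p below 0.639, and the methods' t-test called 1 probe. Before adjustment, 795 probes or 7.63% had a limma p under 0.05, and 3.13% of the tested probes were lower and 4.5% higher in the mutant at this limit. Intensities are in the arbitrary units of the scanner, and differences are mutant minus control on the scale of log2(intensity + 16), which makes the changes of dim probes look smaller than they were.

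Of the 12 member probes, 6 passed the detection filter, 1 each for Notch1, Notch3, Notch4, Jag1, Hes1 and Hey1. The mean of the mutants was below that of the controls for all 6 of these probes, while 49.8% of all tested probes were below 0. Their median log2 difference was -0.84, with a range of -1.38 to -0.45, beside a median of 0.00093 over all tested probes. Jag1 was detected on every control array and on 2 mutant arrays, and Hey1 on every control array and on 3 mutant arrays, so that both were tested only through their higher group, and the counts over the 6 probes are a description of those that passed. The count at an unadjusted p under 0.05 was 2 of 6, Jag1 and Notch3, with 0 at an adjusted p under 0.05. At 4 probes, covering all of Notch2 and Jag2, no array gave a detected signal. 1 of the 6 tested members, Notch3, had no overlap between the strains, as had 4.37% of all tested probes.

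**Figure D1:**
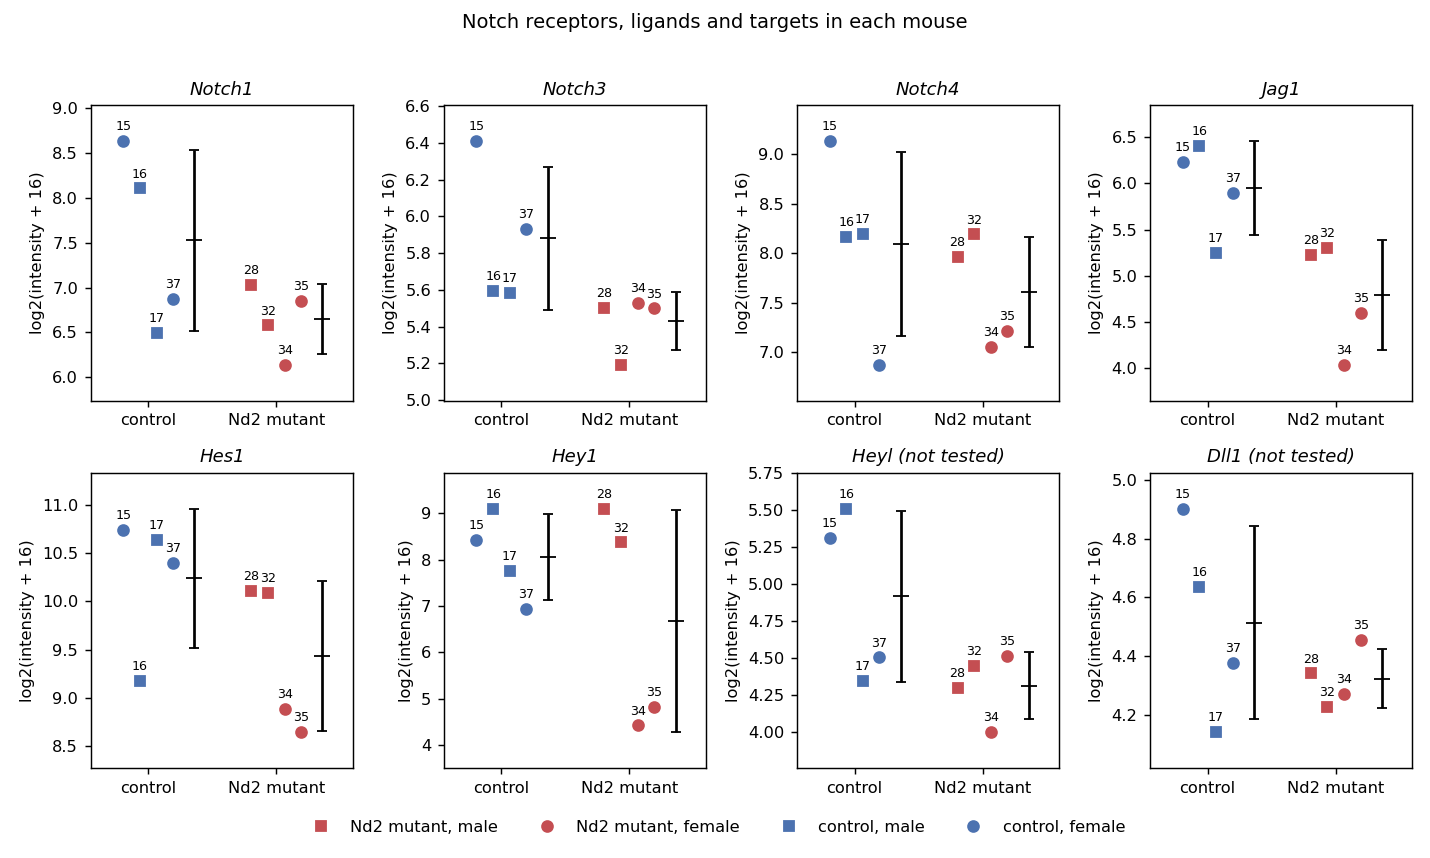
Log2(intensity + 16) of 8 member probes in each of the 8 mice (blue, control; red, Nd2 mutant; squares, males; circles, females; the number is the mouse), with the mean ± SD of each strain (n = 4) as the black bar. The vertical axes do not start at 0 and differ between panels. The mutant females 34 and 35 are the lowest mice for Jag1, Hes1 and Hey1, and control 15 is the highest for Notch1, Notch3 and Notch4.

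The receptors were measured by 6 probes, 3 of which were tested. Notch1 (ILMN_1241915, chromosome 2) is the receptor best known from T cell fate and from epidermal and endothelial cells. Its intensity was 115 in mutant mouse 28, 79.5 in mouse 32, 54.4 in mouse 34 and 99.5 in mouse 35. In the controls it was 381 in mouse 15, 260 in mouse 16, 74.4 in mouse 17 and 101 in mouse 37. Control mice 15 and 16 lay above every mutant, and the other two controls lay within the mutant range. The mean was 87.1 ± 26.2 (SD, n = 4) in the mutants and 204 ± 144 (SD, n = 4) in the controls, and the log2 difference of -0.88 ± 0.43 (SE) did not pass the test (limma, unadjusted p = 0.0651, adjusted p = 0.639). The exact permutation test of 4 against 4 mice, two-sided and unable to go below 0.0286, gave p = 0.229. Without control mouse 15 the difference was -0.51, without control mouse 17 it was -1.22, and with limma's array weights it was -0.43.

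Notch3 (ILMN_2697380, chromosome 17), the receptor of vascular smooth muscle and pericytes, was the one member without overlap. The mutant intensities were 29.3 in mouse 28, 20.5 in mouse 32, 30.2 in mouse 34 and 29.2 in mouse 35. The control intensities were 69.0 in mouse 15, 32.3 in mouse 16, 32.001 in mouse 17 and 45.0 in mouse 37. The highest mutant, mouse 34, and the lowest control, mouse 17, were close to each other. The means were 27.3 ± 4.54 and 44.6 ± 17.4 (SD, n = 4 each), and the log2 difference was -0.45 ± 0.20 (SE; 95% interval -0.89 to -0.01) with a limma adjusted p of 0.639. Its unadjusted p was 0.0445 and its exact permutation p 0.0286, the smallest the design can give. Without control mouse 15 the difference was -0.27, and with 50 in place of 16 added before the log it was -0.28. The unadjusted p rose above 0.05 without mutant mouse 28, 32, 34 or 35 or control mouse 15 or 37, to at most 0.121.

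Notch4 (ILMN_1220697, chromosome 17), a receptor known mainly from endothelium, varied between mice more than between strains. It read 233, 276, 116 and 133 in mutant mice 28, 32, 34 and 35, and 544, 271, 277 and 101 in control mice 15, 16, 17 and 37. Control mouse 15 was the highest and control mouse 37 the lowest of all 8, so the controls spanned the whole mutant range. The log2 difference was -0.49 ± 0.43 (SE), with a 95% interval from -1.43 to 0.46 (limma, adjusted p = 0.741; exact permutation p = 0.457). It was -0.14 without control mouse 15, -0.30 without mutant mouse 34 and -0.89 without control mouse 37, and -0.031 with limma's array weights. A second Notch4 probe, ILMN_1256134, was detected on 0 of 8 arrays, with intensities of -1.51 to 8.37. The 2 probes of Notch2 (ILMN_2678002 and ILMN_2980247, chromosome 3), a receptor widely used outside the vessels, gave -3.43 to 9.07 and -2.39 to 4.06 and were likewise detected on 0 arrays. With these probes no statement on a strain difference of Notch2 can be made.

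Of the ligands, Jag1 (ILMN_1257077), which encodes Jagged1, was tested only through the controls, where it was high. Its intensity was 21.3 in mutant mouse 28, 23.5 in mouse 32, 0.412 in mouse 34 and 8.29 in mouse 35, and only the males 28 and 32 were above the detection limit. In the controls it was 59.4 in mouse 15, 68.5 in mouse 16, 22.1 in mouse 17 and 43.7 in mouse 37. Mouse 17 was the one control within the mutant range, between mice 28 and 32. The means were 13.4 ± 10.95 and 48.4 ± 20.4 (SD, n = 4 each). The log2 difference was -1.16 ± 0.32 (SE; 95% interval -1.86 to -0.45; limma, unadjusted p = 0.00429, adjusted p = 0.639). The exact permutation test gave p = 0.0571. The unadjusted p stayed between 0.00102 and 0.0168 when any 1 mouse was left out, and the difference between -1.39 and -0.90. Because the mutant values were near the background, the size depended on the value added before the log, with -2.31 for 1 and -0.63 for 50 in place of 16.

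The other ligands lay at or near the background. Jag2 (ILMN_2626585), the second Jagged ligand, was detected on 0 arrays and ranged from -2.65 to 3.28. Dll1 (ILMN_2721188, chromosome 17), a Delta-like ligand, was detected on 1 array, that of control mouse 15, at 13.9. It ranged from 2.75 to 5.93 in the mutants and from 1.65 to 13.9 in the controls, and no fold could be given.

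Among the targets, Hes1 (ILMN_1247691, chromosome 16), a basic helix-loop-helix repressor and a direct target of the receptors in many tissues, was detected on all 8 arrays. It read 1089 in mutant mouse 28, 1070 in mouse 32, 458 in mouse 34 and 385 in mouse 35. It read 1697 in control mouse 15, 564 in mouse 16, 1576 in mouse 17 and 1331 in mouse 37. The mutant females were the lowest mice, and control male 16 lay between them and the mutant males. The means were 751 ± 381 and 1292 ± 508 (SD, n = 4 each), and the log2 difference of -0.81 ± 0.42 (SE) did not pass the test (limma, unadjusted p = 0.0809, adjusted p = 0.639; exact permutation p = 0.171). Without control mouse 16 it was -1.16 (unadjusted p = 0.0122), and without mutant mouse 35 it was -0.54.

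Hey1 (ILMN_2690596, chromosome 3), a repressor of the Hairy-related family that acts with Notch in vessels, had the widest spread of the tested members on the log2 scale. Mutant males 28 and 32 read 529 and 315, and mutant females 34 and 35 read 5.48 and 12.2, the former below the detection limit. The controls read 329 in mouse 15, 533 in mouse 16, 201 in mouse 17 and 106 in mouse 37. The mutant males thus lay among the controls, while both mutant females lay far below every control. The log2 difference between the strains was -1.38 ± 0.98 (SE; 95% interval -3.55 to 0.79; limma, adjusted p = 0.696; exact permutation p = 0.314). It was -0.63 without mouse 34, -0.76 without mouse 35 and -2.18 without mouse 28, and -0.89 with 50 added before the log. With mice 34 and 35 both left out it turned to 0.68. Heyl (ILMN_1213139, chromosome 4), the third repressor of the family, was detected in control mice 15 and 16 only, at 23.8 and 29.6. Control mice 17 and 37 read 4.35 and 6.72, and the mutants -0.12 to 6.86. As control mice 17 and 37 were not detected either, no fold could be given, and Heyl was not tested.

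The strain difference was then compared between males and females, with 2 mice of each strain and sex. For each of the 6 tested members the difference was lower in females than in males, as for 46.1% of all tested probes. For Notch1 and Notch4 this order rested on control female 15. Without that mouse the differences in females and males were -0.38 and -0.50 for Notch1 and 0.26 and -0.10 for Notch4. Without control male 17 they were -1.26 and -1.30 for Notch1. Hes1 differed by 0.19 ± 0.41 (SE) on the log2 scale in males and by -1.80 ± 0.41 in females, and the interaction of strain and sex had an unadjusted p of 0.00867 in limma. Hey1 differed by 0.30 ± 0.56 in males and by -3.06 ± 0.56 in females, with an unadjusted interaction p of 0.00258. Neither passed after adjustment over all tested probes (limma, adjusted p = 0.9999 for both). An unadjusted interaction p under 0.05 was found for 2 of the 6 tested members and for 1.77% of all tested probes. With probes detected on all 8 arrays 1 member, Hes1, was left. Leaving out any mouse leaves a lone mouse of its strain and sex, so no count is given for those fits. At an adjusted p under 0.05 the interaction called 0.0096% of the probes, which was the single probe of Id1 and none of the members. Jag1 followed with -0.56 ± 0.37 in males and -1.75 ± 0.37 in females (interaction unadjusted p = 0.0531). For the receptors the interaction had unadjusted p of 0.427 for Notch1, 0.240 for Notch3 and 0.381 for Notch4. With mice 34 and 35 left out of the strain comparison, Hes1 differed by -0.14, Jag1 by -0.68 (unadjusted p = 0.0600) and Notch4 by -0.015, and 0 members had an unadjusted p under 0.05. As the mutant females were these 2 mice, sex and mouse cannot be told apart here.

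**Figure D2:**
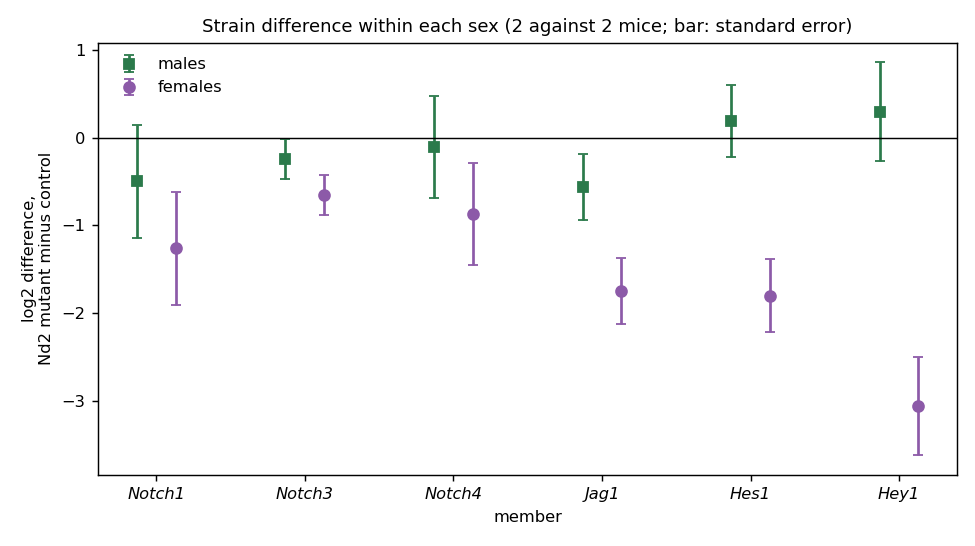
Log2 difference, mutant minus control, of the 6 tested members within males (green squares) and within females (purple circles), 2 mice against 2, with the standard error of the fit as bars. The point for females lies below that for males for each member, by the most for Hey1 (0.30 against -3.06) and Hes1 (0.19 against -1.80). Without control mouse 15, which is included here, the order turned for Notch1 and Notch4.

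Low values in mice 34 and 35 were also found for Id1, an inhibitor of helix-loop-helix proteins that is no member and was picked with its values known. Its probe ILMN_2672190 read 126 in mouse 34 and 86.1 in mouse 35, against 1441 and 1672 in mutant mice 28 and 32 and 1097 to 1932 in the controls. The numbers of detected probes in mice 34 and 35 were 10973 and 11321, within the range of the other arrays.

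The cultures were checked against markers of the cell types that skin could contribute, and the part of these cells in the member values was not tested. Of 12 fibroblast markers, 11 were detected on all 8 arrays, and their summed intensity was 38394 to 45782 in the mutants and 32778 to 48574 in the controls. Of 12 endothelial markers, 6 were detected on all 8 arrays and Erg and Kdr on 0. Their sum was 624 to 1188 in the mutants, 604 to 1130 in control mice 16, 17 and 37, and 2632 in control mouse 15. Mouse 15 had the highest value for 8 of the 12, such as Pecam1 at 88.6 and Cldn5 at 130, and it was also the mouse with the highest Notch1, Notch3 and Notch4. High values in this mouse were not limited to endothelial markers. It was also the highest for 7 of the 12 fibroblast markers. Its sums, taken with the brightest probe of each gene, were the highest for fibroblast markers, at 48574, and for smooth muscle and pericyte markers, at 16008. Flt1 alone read 1301 in mouse 15. Of the 7 tested endothelial probes, 6 were lower in the mutant, and 1 had an unadjusted p under 0.05. This was Emcn, an endothelial surface sialomucin, at 80.2 ± 31.5 in the mutants and 206 ± 67.3 in the controls (SD, n = 4 each) with no overlap, a log2 difference of -1.20 ± 0.27 (SE; limma, unadjusted p = 0.00117, adjusted p = 0.639; exact permutation p = 0.0286). The smooth muscle and pericyte markers, of which 8 of 12 were detected on all arrays and Cnn1, Kcnj8 and Rgs5 on 0, summed to 11743 to 15113 in the mutants and 13836 to 16008 in the controls. Most of this sum was the Acta2 probe ILMN_2693895, which alone read 10063 to 13935 in the mutants and 11596 to 13935 in the controls. Other Acta2 probes were not high in control mouse 15. It read 540 at ILMN_2710353 and 780 at ILMN_2710354, the lowest of all 8 mice at both. At ILMN_2923445 it read 5649, above mutant mouse 35 alone, at 5591. Of their 15 tested probes, 12 were lower and 3 higher in the mutant. Of the lower ones, 6 had an unadjusted p under 0.05, beside 3.13% of all tested probes. These were the 3 probes of Mcam and those of Cspg4, Lmod1 and Myh11. The 3 probes of Mcam, an adhesion protein of pericytes and also of endothelium, differed by -1.03, -1.16 and -1.06 (limma, unadjusted p = 0.00346, 0.00193 and 0.00916, adjusted p = 0.639 for each). Emcn and Mcam had the lowest p of their lists, and Jag1 and Notch3 the lowest of the members, so these 4 were picked from the same data. They differed in the same direction, while other markers went the other way. Of 13 tested fibroblast probes, 9 were higher and 4 lower in the mutant. Dcn (ILMN_2596346) at 0.82 and Lum at 0.88 had no overlap (limma, unadjusted p = 0.0155 and 0.0180, adjusted p = 0.639 for each). The other Dcn probe differed by 0.12. Of 7 tested macrophage probes, 6 were higher and 1 lower, with 0 at an unadjusted p under 0.05. The endothelial marker Tek differed by 0.49. Keratinocyte markers, with Krt1 and Perp detected on 0 arrays, summed to 233 to 1633 and 393 to 1346. The lowest sums were 233 in mutant mouse 34 and 261 in mutant mouse 35. Krt14 read 38.3 and 77.9 in these mice and 166 to 1007 in the others. Krt10 was not low in them, at 150 and 131, against 90.9 to 131 in the others. Macrophage markers, with Ptprc detected on 0 arrays, summed to 350 to 2074 and 273 to 663, the highest in mutant mouse 35 and 466 in mutant mouse 34. Schwann cell and melanocyte markers, with Dct, Mlana, S100b, Tyr and Tyrp1 detected on 0 arrays, summed to 194 to 678 and 242 to 1515, the highest in control mouse 15.

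**Figure D3:**
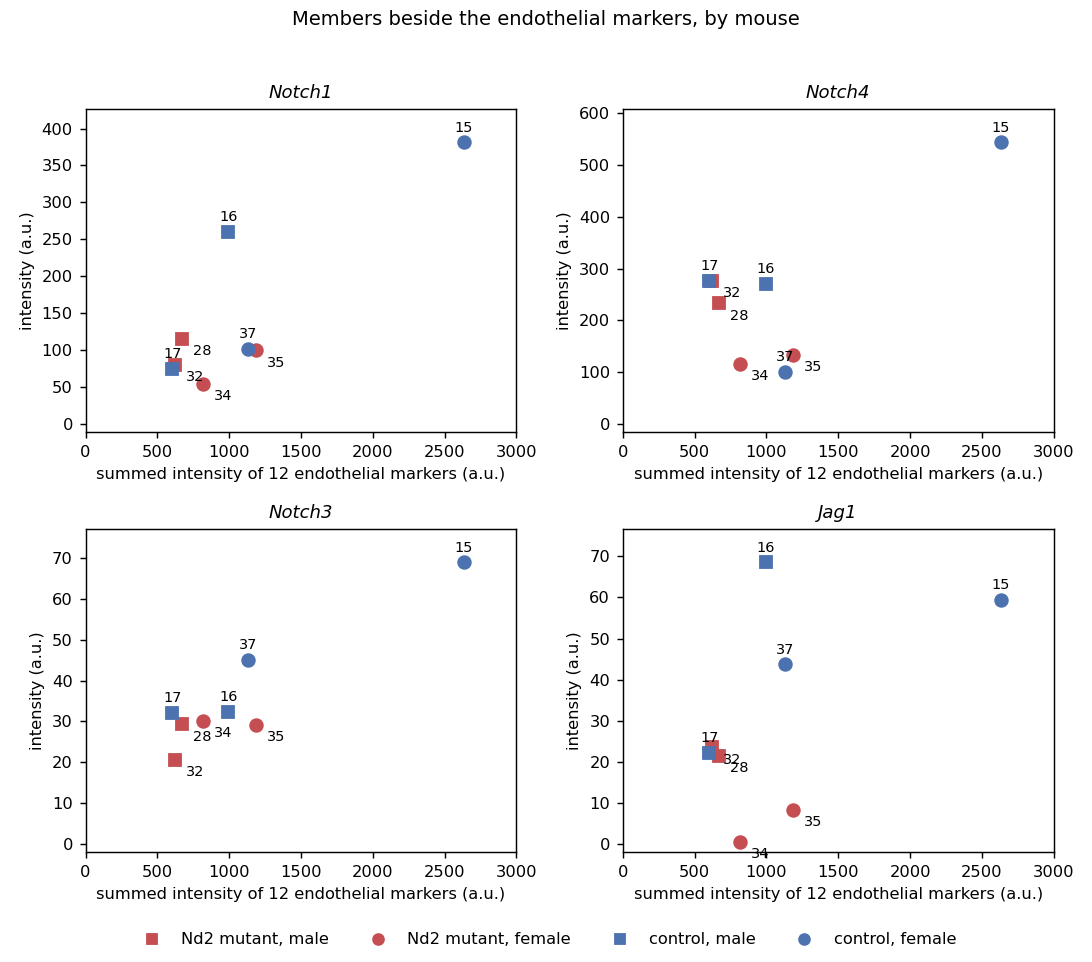
Intensity of Notch1, Notch4, Notch3 and Jag1 in arbitrary units against the summed intensity of 12 endothelial markers, 1 point per mouse (blue, control; red, Nd2 mutant; squares, males; circles, females). Control mouse 15 lies alone at a sum of 2632 and is the highest point for Notch1, Notch4 and Notch3, while for Jag1 control mouse 16 is higher.

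The rest of the pathway was taken from a list of 76 other genes, ordered by role. Probes were found for 68 of them, and 51 probes for 40 genes were tested. Of these, 31 were lower and 20 higher in the mutant, with a median log2 difference of -0.052, and 0 passed at an adjusted p under 0.05. An unadjusted p under 0.05 was found for 5 probes, 9.80% of those tested, beside 7.63% of all tested probes. Of the 5, 4 were higher and 1 lower. No overlap between the strains was seen for 3 of the 51 probes, those of Psenen, Rfng and Epn2, and for 4.37% of all tested probes.

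Of the proteases that cut the receptors, 1 tested probe had an unadjusted p under 0.05, and it was higher in the mutant. Psenen, a small subunit of gamma-secretase, read 630.5 ± 11.4 in the mutants and 488 ± 83.9 in the controls (SD, n = 4 each), a log2 difference of 0.37 ± 0.15 (SE; limma, unadjusted p = 0.0301) with an exact permutation p of 0.0286. For the other tested probes of this step the unadjusted p was above 0.05. Adam17, which makes the outer cut, differed by -0.23, Psen2 by -0.24, Aph1a by 0.22 and Ncstn, the secretase scaffold, by -0.14 and 0.0080 with its 2 tested probes. The values of Psen2 and of both Ncstn probes changed sign when single mice were left out. Adam10, the other main protease of the outer cut, was detected on 0 arrays. Of the 7 tested probes of this group 4 were lower and 3 higher.

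Among the enzymes that add sugars to the receptors, 3 of 5 tested probes were lower and 2 higher. The 2 probes of Furin, a protease that cuts the receptor during its maturation, differed by 0.18 and 0.097. Xxylt1, which extends the xylose on the receptor repeats, was higher by 0.41 ± 0.16 (SE; 236 ± 19.6 against 177 ± 38.7, SD, n = 4 each; limma, unadjusted p = 0.0311). Rfng, a Fringe enzyme that changes which ligand is bound, differed by 0.32 (unadjusted p = 0.0597) and passed the filter only through the mutants. Of the other Fringe genes, Lfng was detected on 0 arrays and Mfng on 1. In the nuclear complex 7 of 14 tested probes were lower and 7 higher, and 0 had an unadjusted p under 0.05, with Maml1, a Mastermind coactivator, at 0.071. Rbpj, the DNA-binding partner of the receptors, was detected with 1 of its 3 probes in control mice 15 and 16 only, at 15.3 and 16.2.

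Of the ligands outside the members, Dlk1, a Delta-like protein that lacks the receptor-binding motif of the classical ligands, differed by 0.76 ± 0.33 (SE; 50.3 ± 31.0 in the mutants and 20.2 ± 6.94 in the controls, SD, n = 4 each; limma, unadjusted p = 0.0428; exact permutation p = 0.143). The highest value was 88.0 in mutant mouse 28, without which the difference was 0.49, and with 50 added before the log it was 0.46. Dll4, the main endothelial ligand, was detected on 0 arrays. Among the proteins that pull on bound ligands by endocytosis, 4 of 5 tested probes were lower, and 1 of 2 tested Epn2 probes had an unadjusted p under 0.05, at -0.34 ± 0.14 (SE; limma, unadjusted p = 0.0367; exact permutation p = 0.0286), while the other differed by -0.13. Of the 11 tested probes of regulators and turnover, 7 were lower and 4 higher, and Nedd4, a ubiquitin ligase, differed by 0.41 ± 0.16 (SE; limma, unadjusted p = 0.0310; exact permutation p = 0.0571). Numb, an inhibitor of the receptors, was detected with 1 of 4 probes, on 1 array.

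The further targets held 5 tested probes, all 5 lower, with a median log2 difference of -0.41 and 0 at an unadjusted p under 0.05. For 3 of the 5 the gene was Ccnd1, which encodes cyclin D1, a protein of the cell cycle under the control of many pathways, at -0.42, -0.41 and -0.56 (unadjusted p = 0.0961, 0.0849 and 0.0617). Nrarp, a target that feeds back on the receptor complex, was detected on 3 arrays of each strain and so was not tested. It read 23.1, 12.9, 10.1 and 11.2 in mutant mice 28, 32, 34 and 35 and 40.2, 71.4, 27.96 and 12.5 in control mice 15, 16, 17 and 37, with 3 controls above every mutant. Hes5 and Hey2 were detected on 0 arrays, and Myc on 3 arrays with 1 of its 2 probes. When mouse 28 was left out, 0 pathway probes had an unadjusted p under 0.05, and 2 without mutant mouse 32, 1 without mutant mouse 34, 2 without mutant mouse 35, 1 without control mouse 16 and 9 without control mouse 17. With probes detected on at least 1 array the count was 8, beside 917 of 12937 over all probes. The count over all probes also moved with the mouse left out, over the range given further below. The pathway counts with a mouse left out can therefore not be read as a trait of this list.

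**Figure D4:**
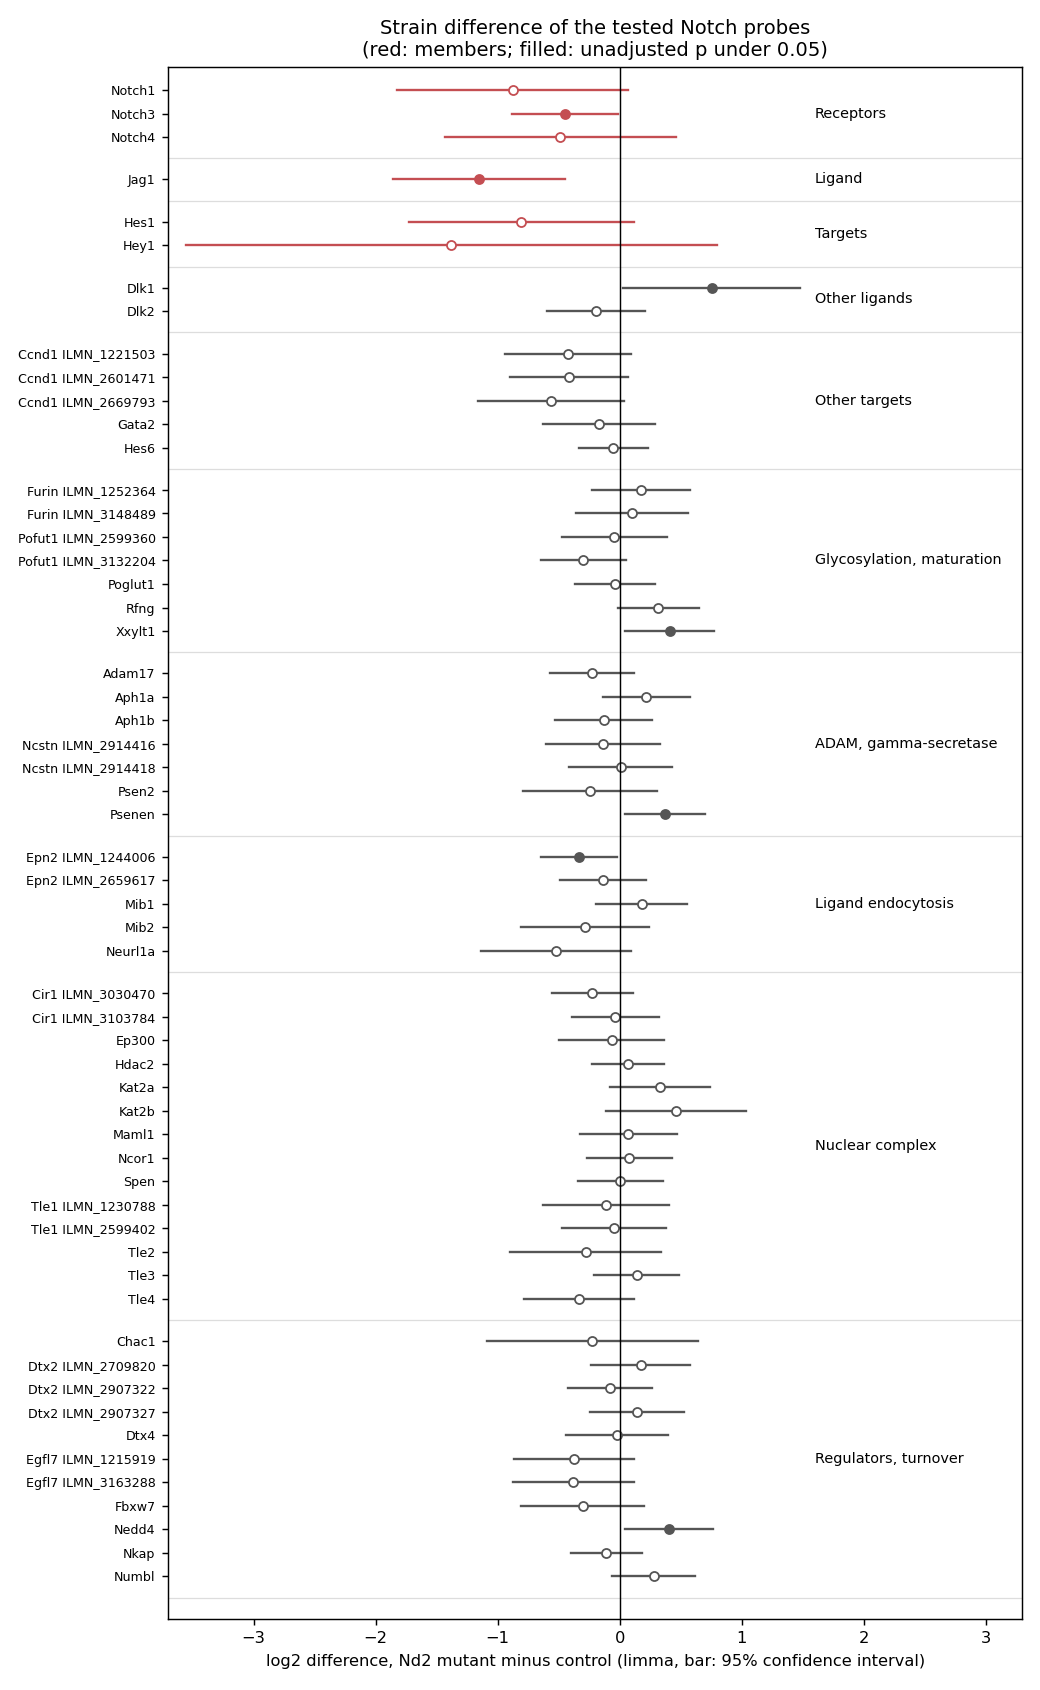
Log2 difference, mutant minus control, with its 95% confidence interval from limma for the 6 tested member probes (red) and the 51 tested probes of the other pathway genes (grey), grouped by role, with filled points for an unadjusted p under 0.05. All 6 member points lie below 0 and 2 are filled, and the other points lie on both sides of 0, with 4 filled on the higher and 1 on the lower side.

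Whether mice with more of a receptor or ligand had more of a target was asked across the 8 mice, over 8 pairs of tested probes. For Hey1 the mice fell into 2 clusters, with mutant females 34 and 35 apart, and no pooled value is given. Jag1 and Hes1 gave a Pearson r of 0.53 (exact permutation p = 0.177, adjusted over the 8 pairs 0.283) and a Spearman rho of 0.50 (exact permutation p = 0.216, adjusted 0.288), and r was 0.81 without the 2 mice farthest from the median of Jag1. With mice 34 and 35 left out, r of this pair was -0.33 (exact permutation p = 0.583), and with each mouse taken as its deviation from the mean of its strain it was 0.23 (exact permutation p = 0.575). Notch4 and Hes1 gave an r of 0.54 (exact permutation p = 0.174) and a rho of 0.55 (exact permutation p = 0.171), and r was 0.78 without the 2 farthest mice, 0.15 without mice 34 and 35 and 0.45 for deviations from the strain means. Notch3 and Hes1 gave an r of 0.46 (exact permutation p = 0.252) and a rho of 0.62 (exact permutation p = 0.115), and r was -0.21 without the 2 farthest mice, control mice 15 and 37. With 50 added before the log, r without these mice was -0.20. With 1 added, the 2 farthest were control mouse 15 and mutant mouse 32, and r without them was 0.50. Without mice 34 and 35, r of this pair was 0.48 (exact permutation p = 0.331). For deviations from the strain means it was 0.18. Notch1 and Hes1 gave an r of 0.24 (exact permutation p = 0.564) and a rho of 0.36 (exact permutation p = 0.389), with r at 0.25 without the 2 farthest mice, -0.17 without mice 34 and 35, -0.14 without control mouse 15 and -0.069 for deviations from the strain means. Over the 6 mice without 34 and 35, r with Hey1 was 0.089 for Jag1, 0.43 for Notch1, -0.25 for Notch3 and 0.57 for Notch4 (exact permutation p = 0.853, 0.372, 0.621 and 0.213). None of the 8 pairs passed at an adjusted p under 0.05.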

How the data were processed

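The authors extracted the array data in GenomeStudio, quantile normalized the probe intensity and, per the methods, subtracted the background where needed. The deposited values reach below 0. The deposited intensity values are linear. A detection p-value, also deposited, sets each probe against negative control beads. The tables deposited as normalized and as non-normalized hold the same values. Negative values were replaced by 0 (26.2% were at or below 0), and log2(intensity + 16) was used. Probes detected at p under 0.01, as in the methods, on all 4 arrays of at least 1 strain were tested with limma 3.58.1 in R 4.3.3, two-sided, and p-values were adjusted by the Benjamini-Hochberg method over the 10414 tested probes. Of the main fits, only the interaction fit held sex as a term, and an alternative added it to the strain comparison. Single probes were also compared by an exact permutation test. Groups, sex and mouse numbers came from the sample labels, and nothing in them says how the arrays shared chips. The steps were tested on simulated data.

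The members and lists were chosen with earlier results of these data known. The genes named were all members, 19 pathway genes picked by role, and any other pathway gene with an unadjusted p under 0.05. Pathway and marker lists were matched by symbol, and 2 of their genes are not reported here and were left out of all counts and sums of these lists. Alternatives were 1 or 50 added, 3 other detection filters, the methods' t-test, a trend in eBayes, array weights, sex as a term and leaving out each mouse. The t-test was run here on the log2 values, a scale that the methods do not name, so its results can differ from those of the authors. Leaving out mice 34 and 35, and leaving out each mouse in the interaction fit, were added after seeing the data. The genome build of the probes is not given in the sources used here, so that chromosomes are those of the deposited annotation.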

Additional observations from a re-analysis of the deposited data

Results flagged for a closer look

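In 3 of 44 groups of 4 mice tested, 1 mouse lay far from the other 3, measured as the gap to its neighbour divided by the range of the group, against Dixon's 95% critical value. Chance alone gives about 1 in 20, or 2.2 of 44. For Notch3, mutant mouse 32 was low at 20.5, with a ratio of 0.908. For Ncstn (ILMN_2914418), control mouse 15 stood apart with a ratio of 0.844. For Epn2 (ILMN_1244006), mutant mouse 28 was low at 82.8, with a ratio of 0.863.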

How the results depend on the processing

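No alternative gave a member probe an adjusted p under 0.05 in limma or the methods' t-test. Of the 6 tested members, 5 kept their direction in all alternatives, and of the 22 named probes 17 did, with 11 of 393 values reversed. Hey1 turned to 0.68 without mice 34 and 35. Ncstn (ILMN_2914416) was 0.049 and Psen2 0.046 with array weights. When 1 mouse was left out, Ncstn (ILMN_2914416) ran from -0.24 to 0.085 and Psen2 from -0.42 to 0.025, both above 0 without control mouse 15 only, Ncstn (ILMN_2914418) from -0.077 to 0.20, and Maml1 from -0.079 to 0.19, below 0 without control mouse 17 only. Ncstn (ILMN_2914418) was -0.034 without mice 34 and 35. Member probes at an unadjusted p under 0.05 numbered 2, but 1 with 50 added, 1 with detection on all 8 arrays, 1 without a filter, 1 in the methods' t-test, 0 without mice 34 and 35, and 1 to 3 when 1 mouse was left out. For the pathway list the count was 5, with 8 for detection on at least 1 array, 10 under no filter, 2 without mice 34 and 35, and 0 to 9 when 1 mouse was left out. Over all probes it was 795, with 1587 under no filter, 486 without mice 34 and 35, and 436 to 1467 when 1 mouse was left out. No filter gave 3 probes and the methods' t-test 1 probe at an adjusted p under 0.05 over all probes, against 0. The interaction had 2 members at an unadjusted p under 0.05, 1 with detection on all 8 arrays, and 2 to 4 when 1 mouse was left out, where a lone mouse of a strain and sex was taken to vary like the others. The cause was not tested. Among the pairs correlated, 0 passed in any alternative.

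Normexp with quantile normalization was not run, nor was a block for the chip, since the tables hold normalized values alone and name no chip. No paired analysis was possible because no mouse number occurs in both strains. Nothing says that the mice came from separate litters or were cultured separately in time, so that p-values measure the spread between these 8 arrays. The number of arrays limits the precision, and intensities of 10.5 to 13.6 were the lowest detected.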
